A study of Mus musculus with 27 samples.

Results

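The genes described are 35 of the 39971 genes of the deposited table: the regulators Nfe2l2 and Keap1 and the enzymes, transporter and ferritins through which cells detoxify oxidants and electrophiles with glutathione and thioredoxin. They were taken by gene symbol from a list chosen for this pathway, and all 35 were found and passed the filter on low values. RNA from the colon of wild type BALB/c mice was sequenced in 27 libraries, each from a separately numbered animal, and 4 of the 5 groups carried neoplasia induced with AOM/DSS, the carcinogen azoxymethane given with dextran sulfate sodium, which irritates the colon. CAC_FPL mice (n = 6) received AOM/DSS, intraperitoneal FOLFOX, and a probiotic complex together with loperamide by gavage. CAC_FP mice (n = 5) received AOM/DSS, FOLFOX and the probiotic complex without loperamide. CAC_F mice (n = 5) received AOM/DSS and FOLFOX, with saline by gavage. CAC mice (n = 5) received AOM/DSS and saline by both routes, and NC mice (n = 6) saline alone. FOLFOX joins folinic acid to fluorouracil and oxaliplatin, and loperamide is an opioid agonist that slows the gut. Tissue was collected 1 week after chemotherapy began, from a tumor-bearing piece of colon in the 4 AOM/DSS groups and from colon in NC, so AOM/DSS and the kind of tissue cannot be told apart. The sources used here do not give the sex or age of the mice.

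Nrf2, the protein of Nfe2l2, is a transcription factor that Keap1 holds in the cytoplasm and passes to a ubiquitin ligase for degradation. Oxidants and electrophiles modify cysteines of Keap1, Nrf2 then accumulates, pairs with small Maf proteins and binds antioxidant response elements beside genes for glutathione synthesis, thioredoxin recycling, NADPH supply and detoxification. In the colon these enzymes are made by epithelium and by immune and stromal cells, and they also handle conjugates of drugs, platinum compounds among them.

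Total counts were 56687812 to 79709845 per library, and every member had at least 118 counts in each library. Epithelial markers (11 genes, summed) were present throughout, at 8538 to 13896 CPM (counts scaled to library size) in CAC_F and 8268 to 13500.4 CPM in CAC. Of these 11, 3 were higher and 1 lower in CAC_F, where 19% of all genes were higher and 20.2% lower. The Hox genes that mark the most distal gut (4 genes) summed to 105 CPM in CAC_FPL replicate 3, 46.1 CPM in CAC replicate 2 and 40.9 CPM in NC replicate 4, and to 1.66 to 30.9 CPM in the other libraries. Smooth muscle markers (12 genes) summed to 1928 to 3371 CPM in CAC_F and 3846 to 17479 CPM in CAC, and 11 of the 12 fell after FOLFOX. Macrophage and monocyte markers summed to 1285 to 2471 CPM in CAC_F and 605 to 1187 CPM in CAC, with 7 of 12 tested higher and 1 lower. Neutrophil markers summed to 288 to 1074 CPM in CAC_F and 14.1 to 137 CPM in CAC, with 3 of 6 tested higher. Erythroid markers summed to 0.132 to 0.463 CPM in CAC_F and 28.6 to 257 CPM in CAC. The part of these cell types in the values below was not tested. The mean of the smooth muscle markers was used as a covariate in 1 alternative fit. Since their sums did not overlap between CAC_F and CAC, that fit cannot tell smooth muscle and FOLFOX apart.

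**Figure D1:**
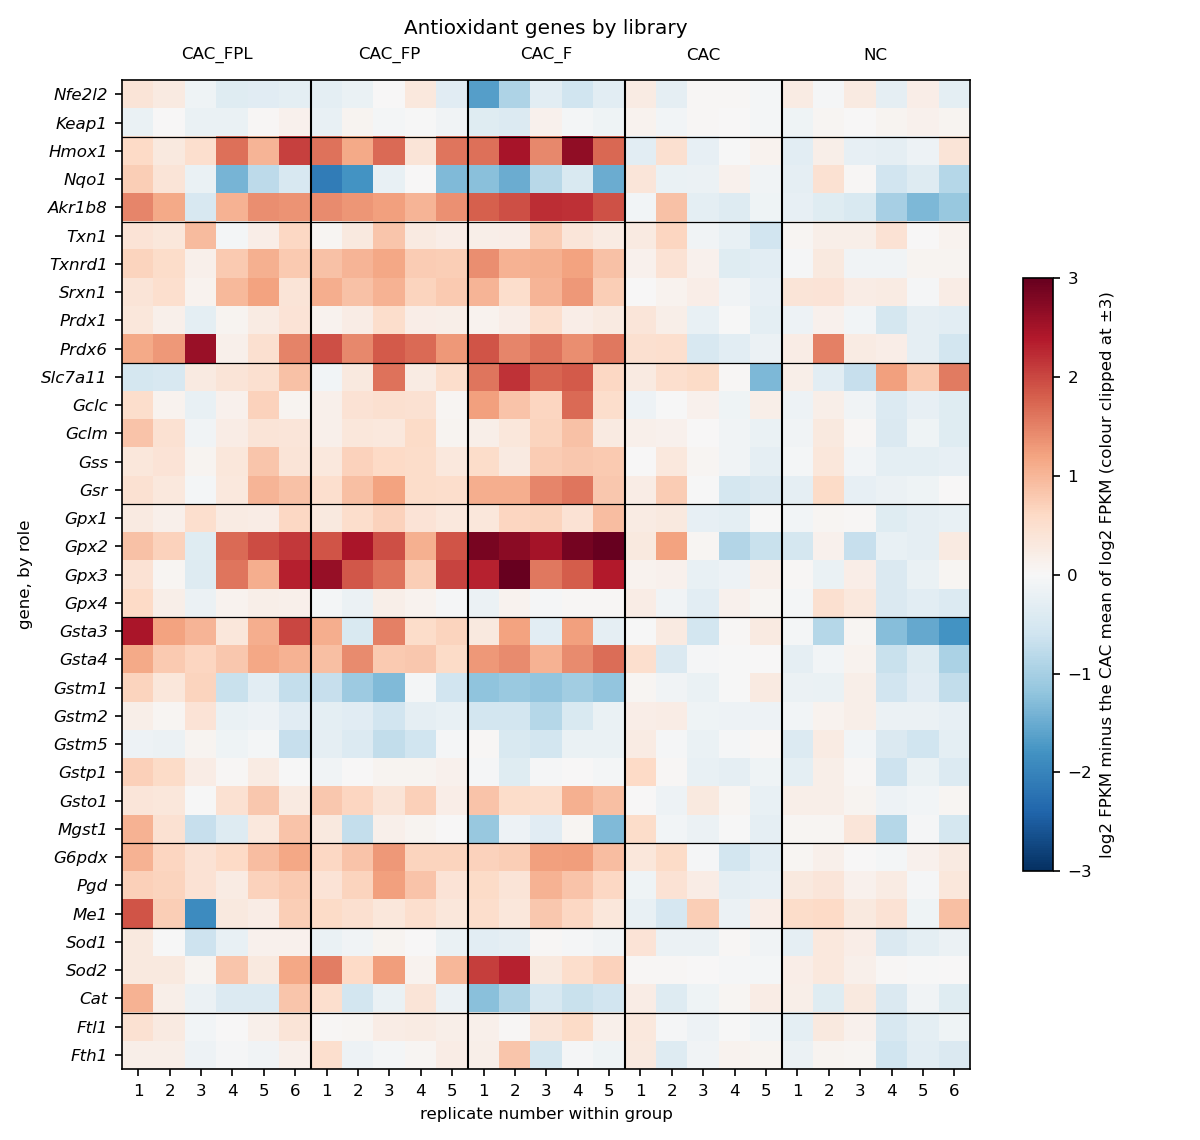
Level of the 35 antioxidant genes in each of the 27 libraries, as log2 FPKM minus the mean of the 5 CAC libraries, with genes grouped by role (rows) and libraries by group (columns). Gpx2, Gpx3, Hmox1 and Akr1b8 are the reddest rows in CAC_F and are paler on average in CAC_FP and CAC_FPL, while Gstm1, Nqo1 and Nfe2l2 are blue in CAC_F.

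After FOLFOX, most of these genes differed from their level in neoplasia given saline. Of the 35 genes, 18 rose and 6 fell in CAC_F relative to CAC (adjusted p below 0.05 by edgeR's quasi-likelihood test, Benjamini-Hochberg over 15080 genes), whereas 19% and 20.2% of all genes tested rose and fell (39.1% in either direction). In 21 of the 35 the CAC_F and CAC libraries did not overlap in FPKM, 16 lying wholly above and 5 wholly below, against 18.7% of all genes. The median log2 fold change was 0.48 over the 35 genes and -0.029 over all genes tested. Among the 35, the genes of glutathione supply, the glutathione peroxidases and the thioredoxin and peroxiredoxin genes held most of those that rose. The 6 that fell were both regulators, Nqo1, Gstm1, Gstm2 and Cat. Slc7a11, 1 of the 18 that rose, passed the filter on low values only through its CAC_F libraries. The stricter filter (mean FPKM 5 or more) left it out, and 17 then rose and 6 fell. Of the 24 calls, 17 held in every alternative tried, each library left out in turn included, and 18 were left with the smooth muscle covariate, a fit that called 29.5% of all genes. In bulk tissue, fewer cells of a type and less RNA per cell cannot be told apart. All log2 fold changes below are of scaled counts, CAC_F over CAC unless other groups are named, with a standard error (SE) from the test, and all levels are FPKM, a fragment count divided by the gene model's length and by library depth.

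**Figure D2:**
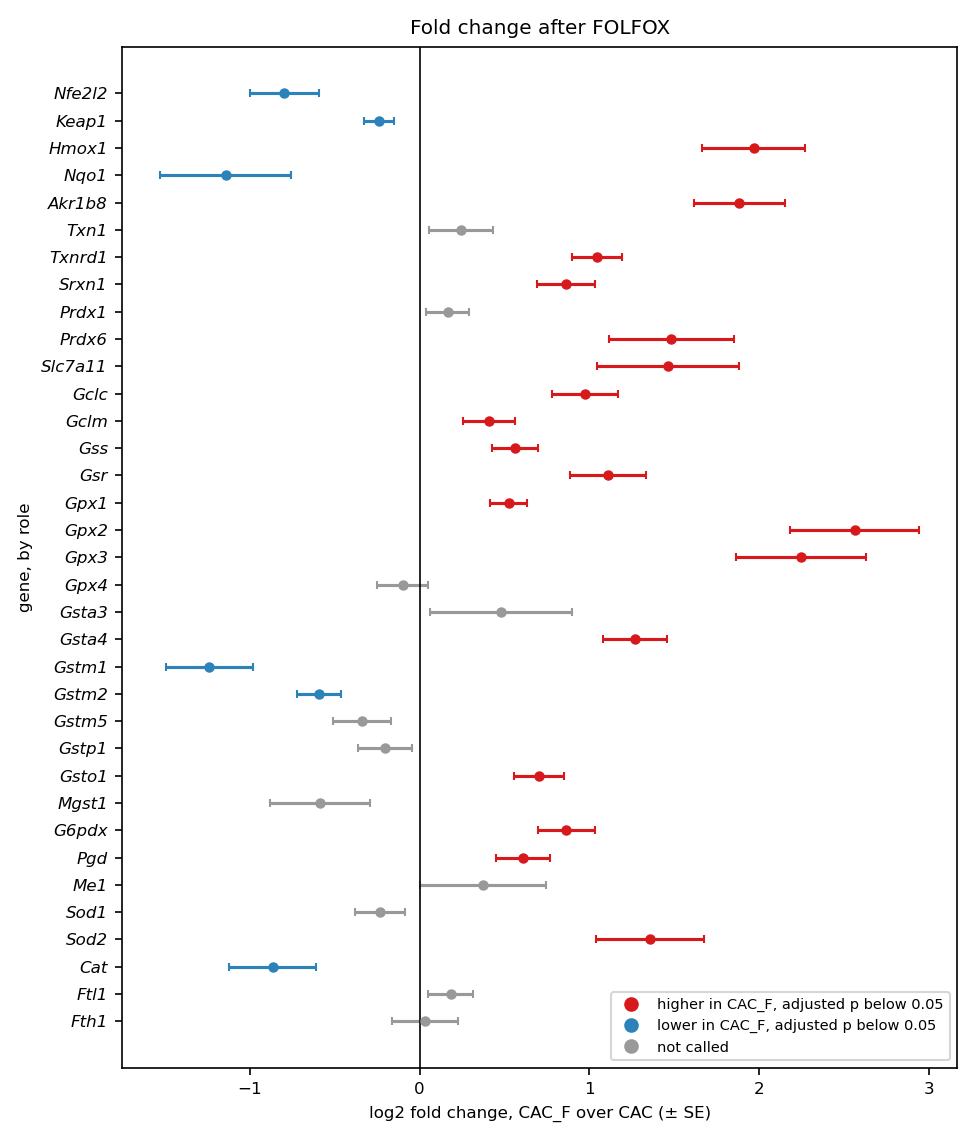
Log2 fold change of each of the 35 genes, CAC_F over CAC, with its standard error, in red where the gene rose, in blue where it fell (adjusted p below 0.05) and in grey where it was not called. All 5 genes of glutathione supply are red, both regulators are blue, and the largest rises are those of Gpx2 and Gpx3.

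The core of the antioxidant response element, written TGACNNNGC, was searched on both strands of the RefSeq promoters (GRCm38.p6, 250 bases before to 50 after each gene's start), which the reference table holds for 30 of the 35 genes (not for Hmox1, Gclc, Gsr, Gsta4 and Prdx6). It occurs in 12.4% of all 32851 promoters of that length and in at least 1 promoter of 14.0% of all genes, against 12 of the 30 (40%). The related letters TGAGNNNGC occur in 17.6% of all promoters and in at least 1 promoter of 19.8% of all genes, against 5 of the 30 (16.7%). TGACTCAGC, which is a case of the first motif with every letter fixed, occurs in 0.454% of promoters and 0.503% of all genes. Among the 30 it occurs in Me1 and Prdx1, at sites already counted under the first motif. Of the 12 genes with TGACNNNGC, 5 rose (G6pdx, Gclm, Pgd, Srxn1 and Txnrd1), Nfe2l2 fell and 6 were not called in CAC_F against CAC. Of the 18 without it, 8 rose, 5 fell and 5 were not called. Among all genes tested, 19% rose and 20.2% fell. The 5 genes with no promoter to search (Hmox1, Gclc, Gsr, Gsta4 and Prdx6) all rose and are in neither count. A match is a description of letters, and elements further from the start were not searched. The 250 bases before the start are shown for 4 of the genes that rose, for Prdx1, which holds a match to TGACTCAGC and was not called, and for Nfe2l2 itself, which fell. They are written in the direction of transcription, with matches to TGACNNNGC or TGAGNNNGC on either strand in capitals. The TGACNNNGC match of Srxn1 lies 28 bases after its start and is not in the stretch shown, which holds 2 matches to TGAGNNNGC.
Srxn1 (chr2:152105274-152105523, plus strand): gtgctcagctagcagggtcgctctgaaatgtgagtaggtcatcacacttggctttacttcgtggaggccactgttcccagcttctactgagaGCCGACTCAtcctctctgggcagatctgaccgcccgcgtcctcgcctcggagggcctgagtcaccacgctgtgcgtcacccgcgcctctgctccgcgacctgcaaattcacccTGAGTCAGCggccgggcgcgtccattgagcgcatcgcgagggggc
Txnrd1 (chr10:82858956-82859205, plus strand): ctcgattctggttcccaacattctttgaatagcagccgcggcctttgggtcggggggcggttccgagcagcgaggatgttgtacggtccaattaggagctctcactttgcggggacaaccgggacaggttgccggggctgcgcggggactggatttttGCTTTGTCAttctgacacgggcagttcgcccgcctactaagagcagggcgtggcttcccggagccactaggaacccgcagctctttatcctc
Gclm (chr3:122245307-122245556, plus strand): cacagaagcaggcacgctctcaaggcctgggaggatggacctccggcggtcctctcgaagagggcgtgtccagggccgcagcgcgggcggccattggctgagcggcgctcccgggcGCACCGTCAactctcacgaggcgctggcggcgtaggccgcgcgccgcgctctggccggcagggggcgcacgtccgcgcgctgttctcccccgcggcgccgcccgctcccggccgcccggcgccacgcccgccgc
G6pdx (chrX:74428881-74429130, minus strand): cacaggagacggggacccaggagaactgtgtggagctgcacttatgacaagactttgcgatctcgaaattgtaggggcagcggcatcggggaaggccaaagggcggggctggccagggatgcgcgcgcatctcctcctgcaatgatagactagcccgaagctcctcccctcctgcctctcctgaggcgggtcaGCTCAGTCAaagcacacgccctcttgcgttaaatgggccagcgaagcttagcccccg
Prdx1 (chr4:116685349-116685598, plus strand): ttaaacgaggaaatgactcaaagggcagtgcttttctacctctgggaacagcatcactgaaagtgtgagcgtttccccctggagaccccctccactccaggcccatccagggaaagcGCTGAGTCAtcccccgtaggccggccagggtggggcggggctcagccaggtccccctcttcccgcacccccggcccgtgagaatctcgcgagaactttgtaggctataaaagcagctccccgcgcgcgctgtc
Nfe2l2 (chr2:75704664-75704913, minus strand): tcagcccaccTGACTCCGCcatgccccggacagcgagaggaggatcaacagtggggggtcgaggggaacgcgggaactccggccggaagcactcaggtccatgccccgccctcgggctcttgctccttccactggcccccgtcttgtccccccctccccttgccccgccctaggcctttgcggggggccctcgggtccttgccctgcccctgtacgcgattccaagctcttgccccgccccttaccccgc

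Both regulators fell in CAC_F. Nfe2l2 (chromosome 2, 75505857 to 75534985 on the minus strand as deposited; the sources used here do not name the build) was at 17.5, 28.7, 43.8, 36.3 and 44.3 FPKM in the CAC_F libraries, against 65.6, 45.8, 56.4, 56.3 and 52.4 FPKM in the CAC libraries. Every CAC_F library lay below every CAC library, although the highest of the CAC_F values, 44.3 FPKM, was close to the lowest of CAC, 45.8 FPKM. The log2 fold change of Nfe2l2 was -0.80 ± 0.20 (SE; adjusted p = 0.00352). Keap1 (chromosome 9, 21141026 to 21150657 on the minus strand), the adaptor that marks Nrf2 for degradation, was at 10.6, 10.3, 14.8, 13.2 and 12.5 FPKM in the CAC_F libraries, against 14.8, 12.8, 13.9, 13.7 and 13.1 FPKM in the CAC libraries. The groups overlapped, and its log2 fold change of -0.24 ± 0.089 (SE; adjusted p = 0.0345) is the smallest in size of the 24 called. The call on Keap1 was lost with median-ratio size factors (adjusted p = 0.0518), with limma on log2(FPKM + 1) (adjusted p = 0.164), without a filter (0.189), with only the groups compared (0.145), with the smooth muscle covariate (0.0532) and without any 1 of 7 of the 10 libraries, and without CAC_F replicate 2 the log2 fold change was -0.16 (adjusted p = 0.177).

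Of the classical detoxifying enzymes, Hmox1 and Akr1b8 rose while Nqo1 fell. Hmox1, the inducible haem oxygenase that breaks haem into biliverdin, iron and carbon monoxide, was at 15.7, 28.0, 13.6, 31.8 and 16.7 FPKM in the CAC_F libraries, against 4.06, 6.98, 4.23, 5.00 and 5.39 FPKM in the CAC libraries. All CAC_F libraries lay above all CAC libraries, replicates 2 and 4 of CAC_F being the highest, and the log2 fold change was 1.97 ± 0.30 (SE; adjusted p = 7.78e-05). Akr1b8, an aldo-keto reductase that reduces reactive aldehydes, was at 80.1, 87.2, 107, 105 and 86.7 FPKM in the CAC_F libraries, against 21.6, 42.0, 18.9, 17.7 and 21.1 FPKM in the CAC libraries. The groups did not overlap although CAC replicate 2 was far above the other CAC libraries, and the log2 fold change was 1.88 ± 0.27 (SE; adjusted p = 4.05e-05). Nqo1, which reduces quinones with NADH or NADPH, was at 8.05, 6.84, 10.7, 13.9 and 6.84 FPKM in the CAC_F libraries, against 24.5, 16.7, 16.9, 20.9 and 17.7 FPKM in the CAC libraries. Every CAC_F library was below every CAC library, with a log2 fold change of -1.14 ± 0.38 (SE; adjusted p = 0.0214). That call was lost without CAC_F replicate 2 (adjusted p = 0.0586), without CAC_F replicate 5 (adjusted p = 0.0567) and with no filter on low values (adjusted p = 0.0547).

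Of the 5 members of the thioredoxin and peroxiredoxin system, Txnrd1, Srxn1 and Prdx6 rose, and Txn1, thioredoxin itself, and Prdx1 were not called. Of 22 further genes of that system and its relatives, given below, 1 rose and 5 fell, the mitochondrial reductase gene Txnrd2 among the latter. Beside these counts, 19% of all genes rose and 20.2% fell. Txnrd1, the cytosolic reductase that restores thioredoxin with NADPH, was at 80.4, 63.0, 63.9, 70.4 and 56.3 FPKM in the CAC_F libraries, against 33.0, 41.0, 33.3, 23.5 and 24.3 FPKM in the CAC libraries. CAC_F lay wholly above CAC, and the log2 fold change of 1.04 ± 0.15 (SE) had the smallest adjusted p of the 35 genes (3.69e-05). Srxn1, the sulfiredoxin that repairs overoxidized peroxiredoxins, was at 57.0, 40.7, 57.5, 68.9 and 47.0 FPKM in the CAC_F libraries, against 28.6, 30.3, 32.5, 26.4 and 23.8 FPKM in the CAC libraries. All CAC_F values were above all CAC values, and the log2 fold change was 0.86 ± 0.17 (SE; adjusted p = 5.25e-04). Prdx6, a peroxiredoxin that also acts on phospholipids, was at 146, 109, 121, 104 and 118 FPKM in the CAC_F libraries, against 54.7, 56.0, 28.2, 31.5 and 35.2 FPKM in the CAC libraries. Its groups were apart as well, with a log2 fold change of 1.48 ± 0.37 (SE; adjusted p = 0.00310), which moved to 1.21 ± 0.46 with the smooth muscle covariate and lost its call (adjusted p = 0.0514). Txn1 averaged 363 ± 66.6 FPKM in CAC_F and 293 ± 97.5 FPKM in CAC, and Prdx1 averaged 140.1 ± 15.6 FPKM in CAC_F and 119 ± 23.2 FPKM in CAC (SD, n = 5 each). Neither was called (adjusted p = 0.322 and 0.303).

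All 5 members placed under glutathione supply rose, where 19% of all genes rose. They run from the import of cystine to the reduction of the oxidized dimer. Of 20 further genes of glutathione synthesis and turnover, given below, 7 rose and 7 fell, where 20.2% of all genes fell. Slc7a11, the light chain of the antiporter that takes up cystine, was the lowest of the 35 genes in CAC, at 1.31, 1.93, 1.45, 1.56 and 0.67 FPKM in the CAC_F libraries, against 0.52, 0.61, 0.64, 0.44 and 0.17 FPKM in the CAC libraries. The groups did not overlap, the margin between them being 0.67 against 0.64 FPKM, and the log2 fold change was 1.46 ± 0.42 (SE; adjusted p = 0.00829). With the smooth muscle covariate it was 0.62 ± 0.45 and not called (adjusted p = 0.302). Slc7a11 passed the filter (1 FPKM in 5 or more libraries) only through CAC_F, where replicates 1 to 4 reached 1 FPKM and no CAC library did. Its place among the genes tested thus rests on the group in which it was high. It was still called without a filter. Gclc (chromosome 9, 77661817 to 77701767 on the plus strand in the deposited coordinates), the catalytic subunit of glutamate-cysteine ligase and the rate-limiting step of glutathione synthesis, was at 54.5, 42.2, 36.1, 74.9 and 33.3 FPKM in the CAC_F libraries, against 20.8, 22.8, 25.2, 21.3 and 26.2 FPKM in the CAC libraries. Every CAC_F library exceeded every CAC library, and the log2 fold change was 0.98 ± 0.19 (SE; adjusted p = 5.67e-04). Gclm, the modifier subunit of the same ligase, was at 13.3, 14.8, 18.7, 21.6 and 14.0 FPKM in the CAC_F libraries, against 13.0, 12.9, 11.8, 10.9 and 10.3 FPKM in the CAC libraries. CAC_F again lay above CAC, but the difference was smaller, with a log2 fold change of 0.41 ± 0.15 (SE; adjusted p = 0.0383). The call on Gclm was lost without any 1 of CAC replicates 3, 4 and 5 and CAC_F replicates 3 and 4 (adjusted p = 0.051 to 0.107), without a filter (0.0569), and with the smooth muscle covariate, where the log2 fold change was 0.33 ± 0.20 (adjusted p = 0.211). The ratio of Gclc to Gclm in FPKM was 2.94 ± 0.862 in CAC_F and 2.00 ± 0.370 in CAC (SD, n = 5 each).

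Gss, glutathione synthetase, was at 27.7, 22.7, 32.2, 33.0 and 32.6 FPKM in the CAC_F libraries, against 18.9, 23.5, 19.6, 17.5 and 15.7 FPKM in the CAC libraries. CAC_F replicate 2 fell among the CAC values while the other CAC_F libraries lay above them, and the log2 fold change was 0.56 ± 0.13 (SE; adjusted p = 0.00224). Gsr, the reductase that returns oxidized glutathione to its reduced form with NADPH, was at 79.6, 80.7, 104, 116 and 66.2 FPKM in the CAC_F libraries, against 44.0, 63.4, 37.2, 26.1 and 28.1 FPKM in the CAC libraries. Its groups did not overlap, with CAC replicate 2 close to the lowest CAC_F library, and the log2 fold change was 1.11 ± 0.22 (SE; adjusted p = 6.00e-04).

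Glutathione peroxidases spend glutathione to reduce peroxides. Of the 4 measured here 3 rose, where 19% of all genes rose, with the largest change in the gene of the gut epithelium. Gpx2 (chromosome 12, 76839107 to 76842273 on the minus strand in the deposited coordinates), the isoform of gastrointestinal epithelium, was at 582, 534, 457, 597 and 681 FPKM in the CAC_F libraries, against 99.2, 189, 84.1, 44.4 and 50.9 FPKM in the CAC libraries. The groups did not overlap, replicate 2 being the highest of CAC, and the log2 fold change of 2.56 ± 0.38 (SE; adjusted p = 5.49e-05) was the largest of the 35. Gpx3, the secreted isoform found in plasma, was at 187, 326, 115, 134 and 197 FPKM in the CAC_F libraries, against 40.7, 41.5, 32.5, 34.1 and 42.3 FPKM in the CAC libraries. Every CAC_F value was above every CAC value, with CAC_F replicate 2 highest, and the log2 fold change was 2.25 ± 0.38 (SE; adjusted p = 1.65e-04). Gpx1, the widely expressed cytosolic isoform, was at 110.5, 136, 138, 118 and 165 FPKM in the CAC_F libraries, against 103, 106, 72.8, 71.3 and 86.6 FPKM in the CAC libraries. The groups were apart by a narrow margin, with a log2 fold change of 0.52 ± 0.11 (SE; adjusted p = 8.94e-04). Gpx4, which reduces phospholipid hydroperoxides and guards against ferroptosis, averaged 48.1 ± 3.29 FPKM in CAC_F and 48.6 ± 7.04 FPKM in CAC (SD, n = 5 each) and was not called, with a log2 fold change of -0.10 ± 0.15 (SE; adjusted p = 0.626). The Gpx2 level was 4.34 ± 0.816 times that of Gpx1 in CAC_F and 1.02 ± 0.487 times in CAC (FPKM ratio, SD, n = 5 each).

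**Figure D3:**
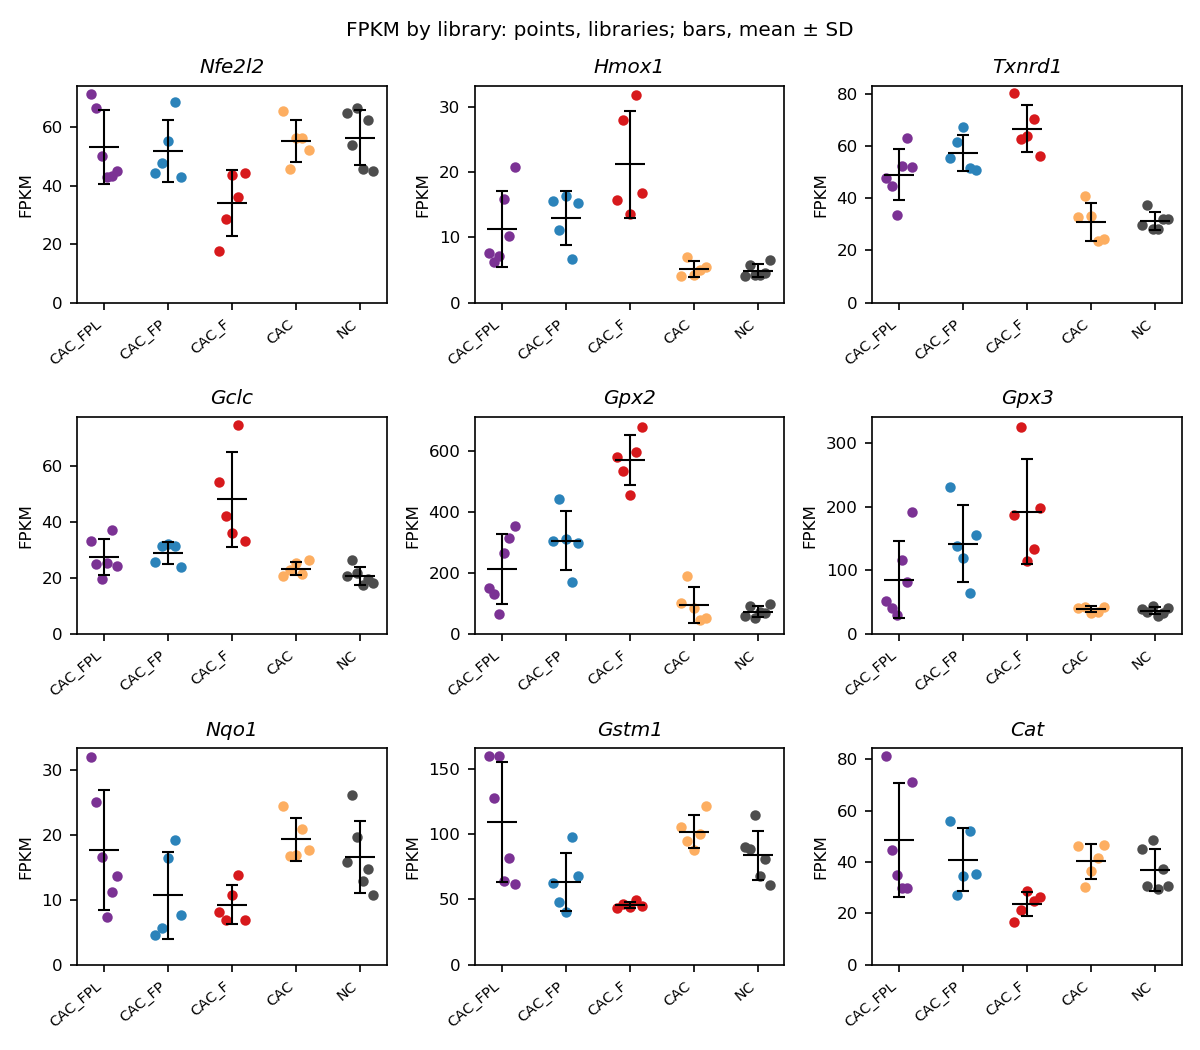
FPKM of 9 of the genes in every library, with points for libraries and bars for the mean ± SD of a group. For Gpx2 the CAC_F points lie above those of the other groups, Gstm1 is tightly low in CAC_F, and Nfe2l2 and Cat have their lowest group mean in CAC_F.

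The glutathione transferases, which attach glutathione to electrophiles, moved in both directions. Gsta4, the alpha class enzyme that conjugates aldehydes from lipid peroxidation, was at 81.9, 89.3, 68.6, 89.7 and 107 FPKM in the CAC_F libraries, against 47.3, 24.5, 32.3, 32.8 and 33.5 FPKM in the CAC libraries. All CAC_F libraries lay above all CAC libraries, with a log2 fold change of 1.27 ± 0.19 (SE; adjusted p = 5.50e-05). Gsto1, an omega class enzyme that reduces mixed disulfides, was at 156, 127, 125, 179 and 161 FPKM in the CAC_F libraries, against 87.0, 77.5, 105, 90.4 and 74.3 FPKM in the CAC libraries. The groups did not overlap, and the log2 fold change was 0.70 ± 0.15 (SE; adjusted p = 8.30e-04). Gstm1, of the mu class, was at 43.6, 46.6, 44.5, 49.5 and 45.0 FPKM in the CAC_F libraries, against 106, 94.8, 87.7, 100.4 and 122 FPKM in the CAC libraries. The CAC_F values were tightly grouped below all CAC values, with a log2 fold change of -1.24 ± 0.26 (SE; adjusted p = 7.91e-04). Gstm2, also of the mu class, was at 36.9, 37.2, 30.2, 39.4 and 47.7 FPKM in the CAC_F libraries, against 62.6, 63.7, 49.4, 49.0 and 49.3 FPKM in the CAC libraries. Each CAC_F library was below each CAC library, and the log2 fold change was -0.59 ± 0.13 (SE; adjusted p = 0.00136). The other 4 members, Gsta3, Gstm5, Gstp1 and Mgst1, were not called, with log2 fold changes of 0.48 ± 0.42, -0.34 ± 0.17, -0.21 ± 0.16 and -0.59 ± 0.30 (SE). Gstp1 shares sequence with Gstp2 and a pseudogene, whose own counts equalled 16.8% to 29.0% and 8.28% to 20.9% of those of Gstp1, so the value of Gstp1 is uncertain.

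Across the 26 transferase genes tested, 6 rose and 11 fell, where 19% of all genes rose and 20.2% fell. In the alpha class 4 of 5 rose and none fell, in the mu class none of 7 rose and 5 fell, and in the theta class none of 3 rose and 2 fell (edgeR quasi-likelihood test; the grouping by class was made after the values were seen). The alpha class genes Gsta1 and Gsta2 had log2 fold changes of 1.94 ± 0.44 and 2.67 ± 0.64 (SE). They and Gsta13 are near copies whose reads may be split, so their separate values are uncertain. Gsta1 averaged 30.2 ± 16.6 FPKM in CAC_F and 7.59 ± 4.10 FPKM in CAC (SD, n = 5 each). Gstm7, of the mu class, averaged 1.20 ± 0.296 FPKM in CAC_F and 3.27 ± 0.516 FPKM in CAC, with a log2 fold change of -1.52 ± 0.34 (SE). Gstt3, of the theta class, averaged 5.88 ± 2.02 FPKM in CAC_F and 13.6 ± 2.13 FPKM in CAC, with a log2 fold change of -1.29 ± 0.25 (SE). Absorptive colonocyte markers, 10 genes summed, were at 503 to 3707 CPM in CAC_F and 1514 to 8758 CPM in CAC, and their part in these values was not tested.

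**Figure D4:**
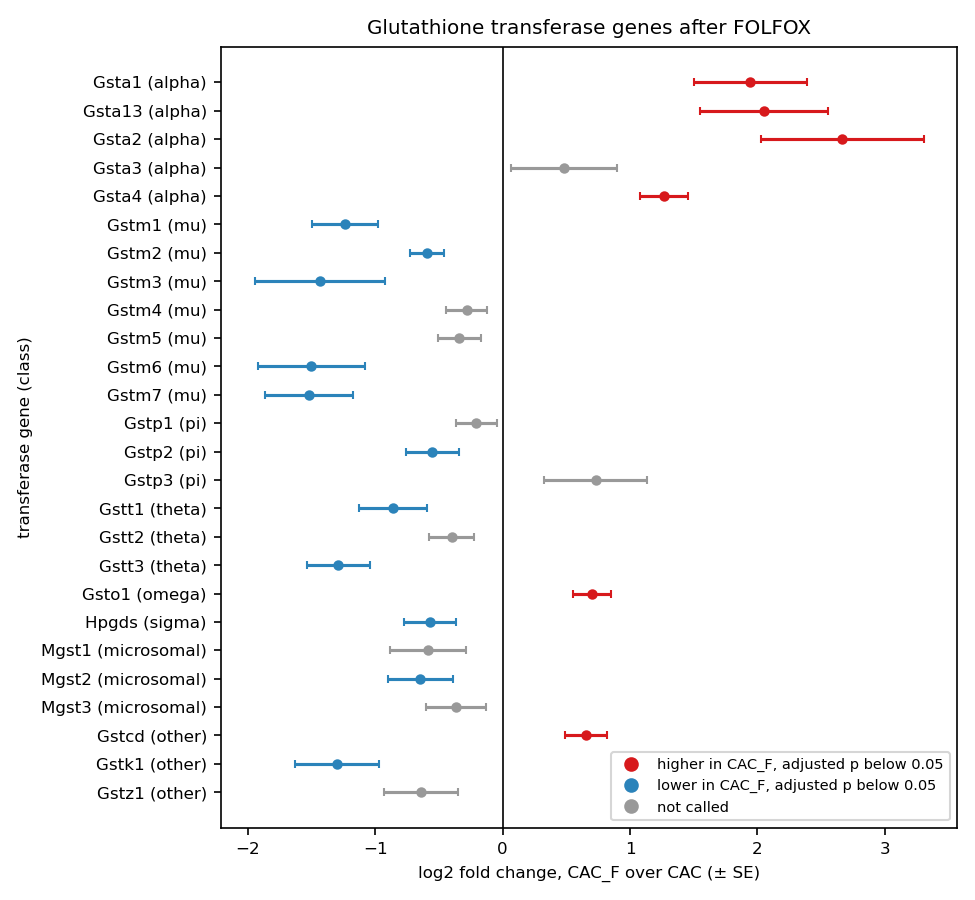
Log2 fold change of 26 glutathione transferase genes, CAC_F over CAC, with standard errors, ordered by class, in red where a gene rose, blue where it fell and grey where it was not called. Alpha class genes lie to the right of 0 and mu and theta class genes to the left.

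Among the enzymes that supply NADPH, which both glutathione and thioredoxin reductases consume, those of the pentose phosphate pathway rose. G6pdx, its entry enzyme, was at 33.1, 34.5, 48.6, 49.5 and 39.0 FPKM in the CAC_F libraries, against 25.9, 30.9, 20.1, 14.1 and 16.4 FPKM in the CAC libraries. No CAC library reached the CAC_F range, and the log2 fold change was 0.86 ± 0.17 (SE; adjusted p = 4.56e-04). Pgd, the phosphogluconate dehydrogenase of the same pathway, was at 46.9, 41.3, 65.5, 57.0 and 49.2 FPKM in the CAC_F libraries, against 28.8, 43.1, 36.8, 26.5 and 26.6 FPKM in the CAC libraries. CAC replicate 2 exceeded the lowest CAC_F library, and the log2 fold change of 0.61 ± 0.16 (SE; adjusted p = 0.00442) moved to 0.33 ± 0.19 with the smooth muscle covariate and lost its call (adjusted p = 0.178). Me1, the cytosolic malic enzyme, averaged 19.5 ± 2.79 FPKM in CAC_F and 14.1 ± 5.07 FPKM in CAC (SD, n = 5 each) and was not called (adjusted p = 0.440).

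Of the enzymes that remove superoxide and hydrogen peroxide directly, Sod2 rose and Cat fell. Sod2, the mitochondrial superoxide dismutase, was at 33.9, 39.5, 9.79, 11.5 and 13.0 FPKM in the CAC_F libraries, against 8.26, 8.25, 8.10, 7.84 and 7.72 FPKM in the CAC libraries. Its CAC libraries were nearly alike while those of CAC_F were spread widely above them, replicates 1 and 2 highest, and the log2 fold change was 1.36 ± 0.32 (SE; adjusted p = 0.00197). Cat, peroxisomal catalase, was at 16.8, 21.3, 28.5, 24.9 and 26.5 FPKM in the CAC_F libraries, against 46.3, 30.2, 36.5, 41.6 and 46.5 FPKM in the CAC libraries. Every CAC_F library was below every CAC library, with a log2 fold change of -0.86 ± 0.26 (SE; adjusted p = 0.0102), which became -0.59 ± 0.32 with the smooth muscle covariate and lost its call (adjusted p = 0.165). Sod1, the cytosolic copper-zinc dismutase, averaged 24.9 ± 2.56 FPKM in CAC_F and 27.7 ± 5.22 FPKM in CAC and was not called (adjusted p = 0.210). The ferritin chains, which store iron, had the highest levels of the 35 genes in CAC and were not called. Ftl1, the light chain, averaged 715 ± 108 FPKM in CAC_F and 597 ± 84.6 FPKM in CAC, with a log2 fold change of 0.18 ± 0.13 (SE; adjusted p = 0.290). Fth1, the heavy chain, averaged 456 ± 168 FPKM in CAC_F and 420.0 ± 73.4 FPKM in CAC, with a log2 fold change of 0.033 ± 0.20 (SE; adjusted p = 0.906). Together they made up 30.3 ± 2.48% of the summed FPKM of the 35 genes in CAC_F and 39.3 ± 4.41% in CAC (SD, n = 5 each).

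Further genes of the pathway were listed beside the 35, and their counts stand beside 19% of all genes that rose and 20.2% that fell in CAC_F against CAC (edgeR quasi-likelihood test). Of 12 other regulators tested, 4 rose and none fell, with a median log2 fold change of 0.21. They were Maff and Mafg, small Maf partners of Nrf2, at log2 fold changes of 1.69 ± 0.38 and 0.37 ± 0.090 (SE), Bach1, the repressor that competes with Nrf2 for its element, at 0.69 ± 0.19, and Hif1a, the oxygen-responsive factor, at 1.60 ± 0.36. Bach1 averaged 13.2 ± 4.51 FPKM in CAC_F and 7.86 ± 1.64 FPKM in CAC (SD, n = 5 each). Of 22 further genes of the thioredoxin and peroxiredoxin system and its relatives, 1 rose and 5 fell, with a median log2 fold change of 0.0075. The riser was the glutaredoxin Glrx3 (0.43 ± 0.10, log2 ± SE). Msra, a methionine sulfoxide reductase, fell (-1.33 ± 0.19), as did the mitochondrial thioredoxin reductase Txnrd2 (-0.70 ± 0.14) and the sestrin Sesn3 (-0.82 ± 0.19), all as log2 fold changes ± SE.

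Of 20 further genes of glutathione synthesis and turnover, 7 rose and 7 fell, with a median log2 fold change of 0.016. Ggt1, the surface enzyme that opens extracellular glutathione, averaged 4.51 ± 2.40 FPKM in CAC_F and 0.620 ± 0.226 FPKM in CAC (SD, n = 5 each; log2 fold change 2.76 ± 0.62, SE). Its CAC_F libraries spanned 0.53 to 6.94 FPKM and overlapped those of CAC at 0.44 to 0.99 FPKM. Cth, which makes cysteine from cystathionine, averaged 5.67 ± 1.72 FPKM in CAC_F and 19.9 ± 4.60 FPKM in CAC (log2 fold change -1.90 ± 0.32, SE). The dipeptidase gene Dpep2, listed under 2 gene IDs of which the one with the higher mean FPKM was used, rose (1.30 ± 0.31) and the glyoxalase gene Hagh fell (-0.54 ± 0.12, log2 ± SE). Of 30 further genes of NADPH supply and detoxification tested, 9 rose and 4 fell, with a median of 0.039, where that of all genes was -0.029. Idh1, the cytosolic isocitrate dehydrogenase and another source of NADPH, averaged 214 ± 42.8 FPKM in CAC_F and 61.9 ± 9.10 FPKM in CAC (log2 fold change 1.72 ± 0.22, SE). The efflux pumps Abcc1 and Abcc4 rose (0.95 ± 0.13 and 1.35 ± 0.21, log2 ± SE). Akr1c14, an aldo-keto reductase, averaged 2.58 ± 1.56 FPKM in CAC_F and 33.7 ± 9.23 FPKM in CAC (log2 fold change -3.79 ± 0.62, SE). In the comparisons of CAC with NC, CAC_FP with CAC_F and CAC_FPL with CAC_FP, 0 genes of these further lists were called.

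AOM/DSS neoplasia without chemotherapy left no member past the test. In CAC against NC, 0 of the 35 genes were called by the edgeR quasi-likelihood test, by DESeq2 or by limma, where the edgeR test called 0.00663% of all genes. At an unadjusted p below 0.05 the count was 1, against 7.72% of all genes. That gene was Akr1b8, at 21.6, 42.0, 18.9, 17.7 and 21.1 FPKM in the CAC libraries and between 9.01 and 19.3 (median 14.2) FPKM in the NC libraries. The groups overlapped, and its log2 fold change, CAC over NC, was 0.69 ± 0.25 (SE; adjusted p = 0.510). No member's groups were apart, against 1.15% of all genes, and the log2 fold changes ran between -0.62 (Slc7a11) and 0.69 (Gsta3). Nfe2l2 averaged 55.3 ± 7.17 FPKM in CAC (SD, n = 5) and 56.5 ± 9.56 FPKM in NC (SD, n = 6), and Keap1 averaged 13.7 ± 0.762 FPKM in CAC and 14.1 ± 0.838 FPKM in NC. Gpx2 averaged 93.6 ± 58.2 FPKM in CAC and 71.9 ± 18.6 FPKM in NC, with a log2 fold change of 0.28 ± 0.34 (SE). A p that misses the threshold does not show that the levels were equal.

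With the probiotic complex beside FOLFOX, no member passed the test against FOLFOX alone, and the libraries were apart in Gclc, Gpx2 and Akr1b8, all of them lower in CAC_FP. In CAC_FP against CAC_F, 0 of the 35 were called by the edgeR quasi-likelihood test or by limma, the share of all genes being 0%. At an unadjusted p below 0.05 there were 9 of the 35, against 15.9% of all genes. DESeq2 called 1, Gclc, which was lower in CAC_FP, and 1.67% of all genes. Gclc was at 25.7, 31.3, 32.3, 31.6 and 24.0 FPKM in the CAC_FP libraries, against 54.5, 42.2, 36.1, 74.9 and 33.3 FPKM in the CAC_F libraries. All CAC_FP libraries lay below all CAC_F libraries, and the log2 fold change, CAC_FP over CAC_F, was -0.75 ± 0.19 (SE; adjusted p = 0.132), the smallest adjusted p of the 35. Without CAC_F replicate 3 it was -0.85 ± 0.20 and called (adjusted p = 0.025), in a fit that called 4.08% of all genes. Gpx2 was at 303, 444, 313, 169 and 299.6 FPKM in the CAC_FP libraries, against 582, 534, 457, 597 and 681 FPKM in the CAC_F libraries. Here too the groups did not overlap, with a log2 fold change of -0.90 ± 0.36 (SE; adjusted p = 0.230). Akr1b8 was at 61.4, 57.2, 54.3, 46.5 and 59.5 FPKM in the CAC_FP libraries, against 80.1, 87.2, 107, 105 and 86.7 FPKM in the CAC_F libraries. Its groups were likewise apart, with a log2 fold change of -0.74 ± 0.26 (SE; adjusted p = 0.183), so 3 of the 35 did not overlap, against 2.18% of all genes.

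The other 6 with an unadjusted p below 0.05 overlapped between the groups. Cat was at 55.9, 27.3, 34.5, 52.0 and 35.2 FPKM in the CAC_FP libraries, against 16.8, 21.3, 28.5, 24.9 and 26.5 FPKM in the CAC_F libraries. The lowest CAC_FP library fell within the CAC_F range, and the log2 fold change, CAC_FP over CAC_F, was 0.80 ± 0.26 (SE; adjusted p = 0.160). Nfe2l2 was at 44.5, 47.7, 55.3, 68.6 and 43.1 FPKM in the CAC_FP libraries, against 17.5, 28.7, 43.8, 36.3 and 44.3 FPKM in the CAC_F libraries. CAC_FP replicate 5 lay below the highest CAC_F libraries, and the log2 fold change was 0.62 ± 0.20 (SE; adjusted p = 0.166). Slc7a11, Hmox1, Gsr and Gsta4 had log2 fold changes of -1.03 ± 0.42, -0.70 ± 0.29, -0.48 ± 0.22 and -0.46 ± 0.19 (SE), with adjusted p between 0.234 and 0.291. Smooth muscle markers summed to 1231 to 3928 CPM in CAC_FP and 1928 to 3371 CPM in CAC_F, macrophage and monocyte markers to 852 to 1544 CPM in CAC_FP and 1285 to 2471 CPM in CAC_F, and neutrophil markers to 103 to 669.7 CPM in CAC_FP and 288 to 1074 CPM in CAC_F. Their part in these differences was not tested.

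Loperamide added to FOLFOX and the probiotic complex gave no call among the 35 genes either. In CAC_FPL against CAC_FP, 0 were called by the edgeR quasi-likelihood test, DESeq2 or limma (0% of all genes by the edgeR test), with 4 of the 35 and 6.6% of all genes at an unadjusted p below 0.05. Gstm1 had the smallest adjusted p (0.611). In the CAC_FPL libraries it was at 159.9, 128, 160.2, 63.8, 81.9 and 61.8 FPKM in replicate order (median 105), the first 3 all above the last 3. In the CAC_FP libraries it was at 62.5, 47.8, 40.5, 98.1 and 68.1 FPKM. The groups overlapped over much of their range, with a log2 fold change, CAC_FPL over CAC_FP, of 0.82 ± 0.25 (SE). The other 3 were Gstm2, Nqo1 and Gpx3, with log2 fold changes of 0.37 ± 0.13, 0.76 ± 0.37 and -0.74 ± 0.35 (SE; adjusted p = 0.687, 0.748 and 0.748). No member's groups were apart, against 0.252% of all genes. Gpx2 was at 303, 444, 313, 169 and 299.6 FPKM in the CAC_FP libraries. In the CAC_FPL libraries it was at 151, 131, 63.4, 264, 313 and 353 FPKM in replicate order (median 207), the first 3 all below the last 3. This was the widest CAC_FPL range among the peroxidases. The lowest Gpx2 value of CAC_FPL was in replicate 3, the library with the highest distal Hox genes (105 CPM). CAC replicate 2, next highest in those genes (46.1 CPM), had the highest Gpx2 value of CAC, 189 FPKM. NC replicate 4, also high in them (40.9 CPM), was at 69.6 FPKM, within the NC range of 50.7 to 98.1 FPKM. CAC_FPL replicate 3 and CAC replicate 2 also had the lowest absorptive colonocyte sums of their groups (2354 and 1514 CPM). Any part of gut position or of cell types in these values was not tested.

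The groups given FOLFOX with additions were also set against CAC. These comparisons share the CAC libraries with the one of CAC_F against CAC, so their values stand side by side and their likeness is not tested. In CAC_FP against CAC, 15 of the 35 rose and 3 fell (edgeR quasi-likelihood test), where 18.6% of all genes were called (9.68% higher and 8.9% lower). The genes that rose were Hmox1, Akr1b8, Txnrd1, Srxn1, Prdx6, Gss, Gsr, Gpx1, Gpx2, Gpx3, Gsta4, Gsto1, G6pdx, Pgd and Sod2, and those that fell were Gstm1, Gstm2 and Gstm5. In 10 of the 35 the CAC_FP and CAC libraries did not overlap, 9 above and 1 below, against 9.01% of all genes. Of the 18 calls, 10 held without each library in turn and 7 in all alternatives tried, and 7 were left with the smooth muscle covariate, a fit that called 9.09% of all genes. Smooth muscle markers summed to 1231 to 3928 CPM in CAC_FP and 3846 to 17479 CPM in CAC. In CAC_FPL against CAC, 4 rose and none fell, where 1.41% of all genes were called (0.882% higher and 0.524% lower). They were Akr1b8, Txnrd1, Gsta4 and G6pdx. The CAC_FPL libraries lay wholly above those of CAC in 3 genes, Gsta3, Gsta4 and Sod2, against 1.62% of all genes without overlap in either direction. Of these, Gsta3 (adjusted p = 0.0684) and Sod2 (adjusted p = 0.405) were not called. Without CAC_FPL replicate 3, the library with the highest distal Hox genes, 10 of the 35 and 5.06% of all genes were called. Without CAC replicate 3 the count was 0, beside 0.298% of all genes. Smooth muscle markers summed to 2096 to 6491 CPM in CAC_FPL and 3846 to 17479 CPM in CAC, with 0 of 12 called. At an unadjusted p below 0.05 there were 11 of them (median log2 fold change -1.02), beside 2837 of all 15080 genes. With the smooth muscle covariate, Gsta4 was the 1 of these 4 calls left, and 0.935% of all genes were called. Txnrd1 averaged 49.1 ± 9.76 FPKM in CAC_FPL (SD, n = 6), 57.4 ± 7.03 in CAC_FP, 66.8 ± 9.09 in CAC_F and 31.0 ± 7.26 in CAC (SD, n = 5 each). Its log2 fold changes over CAC were 0.61 ± 0.14 in CAC_FPL, 0.81 ± 0.15 in CAC_FP and 1.04 ± 0.15 in CAC_F (SE), each of them called. The call on Txnrd1 in CAC_FPL was lost without a filter, with the replicate block, with the smooth muscle covariate, with only the groups compared and without any 1 of CAC replicates 3, 4 and 5 and CAC_FPL replicates 4, 5 and 6 (adjusted p = 0.0502 to 0.187). Gpx2 averaged 212 ± 114 FPKM in CAC_FPL, 306 ± 97.1 in CAC_FP, 570.4 ± 82.3 in CAC_F and 93.6 ± 58.2 in CAC. Its log2 fold changes over CAC were 1.14 ± 0.35 in CAC_FPL (not called, adjusted p = 0.0835), 1.66 ± 0.37 in CAC_FP and 2.56 ± 0.38 in CAC_F. Prdx6 had log2 fold changes over CAC of 1.33 ± 0.36 in CAC_FPL (adjusted p = 0.0571), 1.54 ± 0.37 in CAC_FP and 1.48 ± 0.37 in CAC_F. Gclc had log2 fold changes over CAC of 0.18 ± 0.18 in CAC_FPL and 0.23 ± 0.19 in CAC_FP, neither called (adjusted p = 0.630 and 0.413), and 0.98 ± 0.19 in CAC_F.

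**Figure D5:**
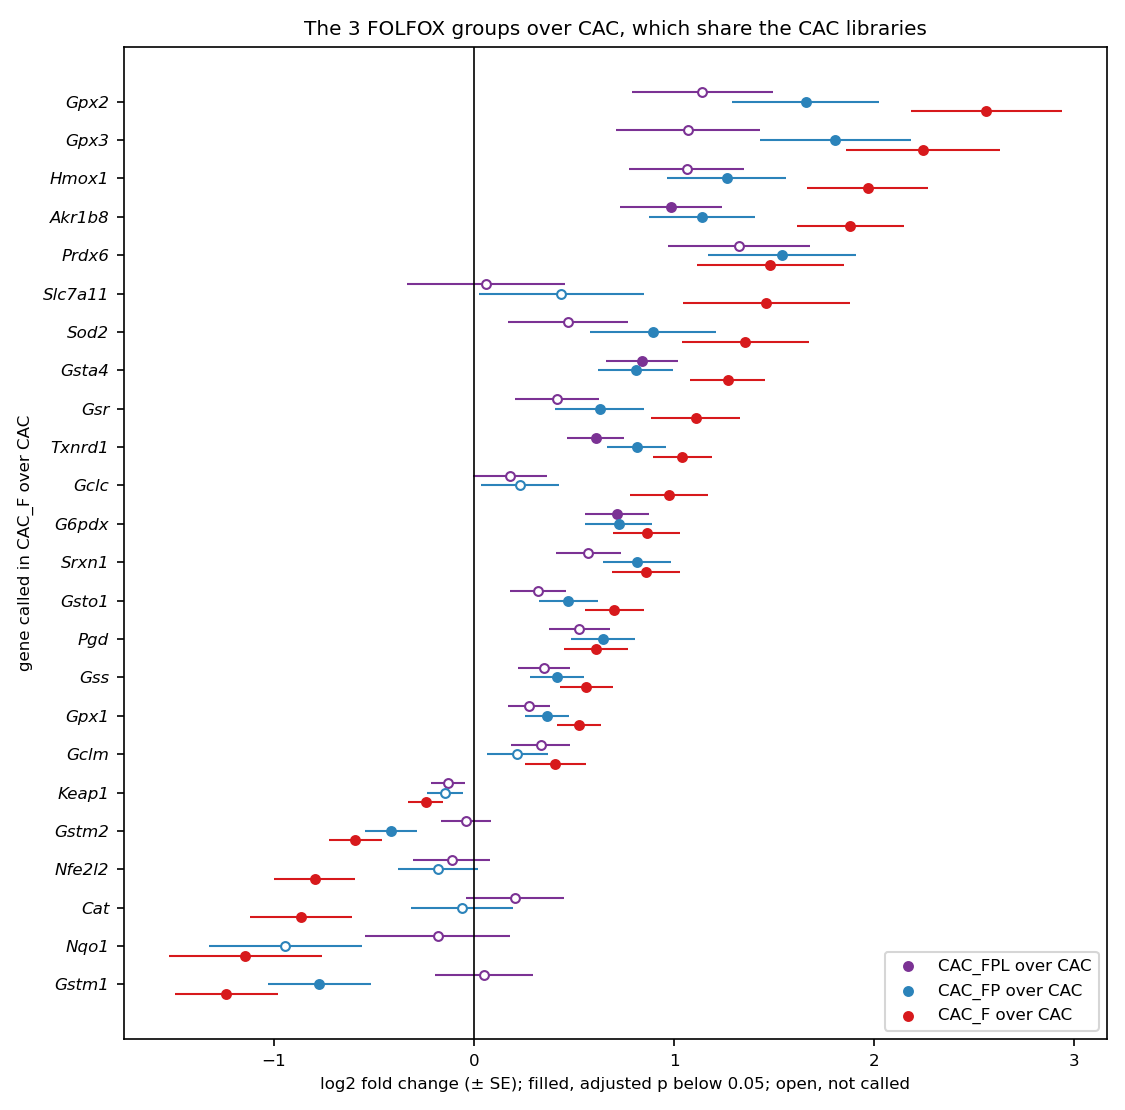
Log2 fold change over CAC of the 24 genes called in CAC_F against CAC, for CAC_FPL (purple), CAC_FP (blue) and CAC_F (red), with standard errors. Filled points were called and open points were not, and the 3 sets of values share the 5 CAC libraries.

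In CAC_FPL against CAC_F, 5 of the 35 rose and 8 fell (edgeR quasi-likelihood test), where 12.2% of all genes were called (7.14% higher and 5.05% lower). Gstm1, Gstm2, Cat, Nfe2l2 and Mgst1 were higher in CAC_FPL, and Gpx2, Gclc, Akr1b8, Slc7a11, Gpx3, Gsr, Hmox1 and Txnrd1 were lower. Gstm1 was at 159.9, 128, 160.2, 63.8, 81.9 and 61.8 (median 105) FPKM in the CAC_FPL libraries, against 43.6, 46.6, 44.5, 49.5 and 45.0 FPKM in the CAC_F libraries. Every CAC_FPL library was above every CAC_F library, and the log2 fold change, CAC_FPL over CAC_F, was 1.29 ± 0.25 (SE; adjusted p = 0.00618). Cat was between 29.8 and 81.2 (median 39.9) FPKM in CAC_FPL and 16.8, 21.3, 28.5, 24.9 and 26.5 FPKM in CAC_F. These groups were apart as well, with a log2 fold change of 1.07 ± 0.25 (SE; adjusted p = 0.0126). Gpx2 and Akr1b8 were below all CAC_F libraries in every CAC_FPL library, with log2 fold changes of -1.42 ± 0.34 (SE; adjusted p = 0.0148) and -0.90 ± 0.25 (SE; adjusted p = 0.0235), so that 4 of the 35 did not overlap, against 3.12% of all genes. Nfe2l2 was at 71.4, 66.6, 50.3, 42.9, 43.3 and 44.9 (median 47.6) FPKM in CAC_FPL and 17.5, 28.7, 43.8, 36.3 and 44.3 FPKM in CAC_F, with a log2 fold change of 0.69 ± 0.19 (SE; adjusted p = 0.0261). When the CAC_FPL and CAC_F libraries were fitted alone, none of the 13 calls was left and 0% of all genes were called. The log2 fold changes of Gpx2 and Gstm1 were then -1.43 ± 0.35 and 1.28 ± 0.28 (adjusted p = 0.102 for both). Without CAC_F replicate 2, 5 of the 35 and 2.82% of all genes were called. Erythroid markers summed to 176, 58.5, 32.9, 0.174, 0.949 and 3.70 CPM in the CAC_FPL libraries, in replicate order, and to 0.132 to 0.463 CPM in CAC_F. Absorptive colonocyte markers summed to 2354 to 9482 CPM in CAC_FPL and 503 to 3707 CPM in CAC_F. Neutrophil markers summed to 34.8 to 602 CPM in CAC_FPL and 288 to 1074 CPM in CAC_F, with 1 of 6 called, lower in CAC_FPL. Macrophage and monocyte markers summed to 735 to 1731 CPM in CAC_FPL and 1285 to 2471 CPM in CAC_F, with 0 of 12 called. Of these 12, 7 had an unadjusted p below 0.05, beside 4665 of all 15080 genes. The part of these markers in the differences was not tested.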

How the data were processed

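Stranded mRNA libraries of colon tissue from 27 mice were sequenced. The authors deposited a table with raw counts for each gene in each library, with FPKM values to 2 decimals beside them. Per the submitters' processing notes, cutadapt 1.9, FastQC and HISAT2 were used, and for the counting tool, annotation and genome build the sources used here give no name. Deposited coordinates equal those of GENCODE M21 (GRCm38) in start and end for 1.88% of shared gene IDs, so they were never mixed with the GRCm38.p6 promoters.

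Genes were tested if their FPKM reached 1 in 5 or more libraries (15080 genes, 99.3% of counts). Counts were scaled by trimmed means of M values (TMM). A single edgeR 4.0.16 model in R 4.3.3, with 1 term for each group, covered all 27 libraries (quasi-likelihood test, two-sided). A gene is called where its adjusted p is below 0.05 (Benjamini-Hochberg over the 15080 genes). The SE was taken as the size of the log2 fold change divided by the root of F. FPKM levels carry no TMM scaling. P-values measure the spread between these numbered samples, which the labels place in 1 batch.

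The 35 genes, the other lists and the comparisons were chosen with earlier results of these data known. Values in each library are given for Nfe2l2, Keap1 and genes called in CAC_F against CAC, for Akr1b8, Gclc, Gpx2, Cat, Nfe2l2 and Gstm1 in other comparisons (chosen after their values were seen), and for up to 4 called genes of each further list, those with the smallest adjusted p, as means. Alternatives were no filter, a stricter one (mean FPKM 5 or more), median-ratio size factors, DESeq2 1.42.0, limma 3.58.1 on log2(FPKM + 1) and log2(FPKM + 0.1), a replicate block, a smooth muscle covariate, a model of the compared groups alone, each library left out, and CAC replicate 2 with CAC_FPL replicate 3 left out together.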

Additional observations from a re-analysis of the deposited data

Results flagged for a closer look

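Each gene was screened in each group for a library that stands apart from the others of its group (the gap to the nearest library over the whole range, on log2(FPKM + 0.01), against Dixon's 95% critical value). Of 175 pairs of gene and group, 9 were picked out, where chance alone gives about 1 in 20.

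In CAC_FPL, Akr1b8, the aldo-keto reductase, was at 16.54 FPKM in replicate 3, below the 47.22 to 63.15 FPKM of the other libraries, and replicate 3 is the library with the highest distal Hox genes of that group. The mu class transferase Gstm5 was at 9.51 FPKM in CAC_FPL replicate 6, below 13.75 to 16.42 FPKM. In CAC_FP, the microsomal transferase Mgst1 was at 28.44 FPKM in replicate 2, below 47.31 to 57.09 FPKM, and Prdx1 was at 167.76 FPKM in replicate 3, above 126.49 to 136.96 FPKM. In CAC_F, Gstp1 was at 74.09 FPKM in replicate 2, below 91.69 to 97.16 FPKM.

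In CAC, Akr1b8 was at 41.97 FPKM in replicate 2, above 17.68 to 21.65 FPKM, and that library has the highest distal Hox genes of its group. The cystine transporter Slc7a11 was at 0.17 FPKM in CAC replicate 5, below 0.44 to 0.64 FPKM, and the ferritin light chain Ftl1 was at 743.02 FPKM in CAC replicate 1, above 530.99 to 584.51 FPKM. In NC, glutathione reductase, Gsr, was at 55.73 FPKM in replicate 2, above 31.45 to 38.18 FPKM.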

How the results depend on the processing

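No call on any of the 35 genes changed direction under any alternative. In CAC_F against CAC, 24 genes were called, beside 39.1% of all genes. The counts were 18 with the smooth muscle covariate (29.5% of all genes) and 21 without a filter (2965 of 37962 genes higher and 2419 lower). With each library left out they were 22 to 24, with 2353 to 3130 of all genes higher and 2384 to 2972 lower. In CAC against NC and CAC_FPL against CAC_FP, 0 were called in every alternative, each library left out included. In CAC_FP against CAC_F, 0 were called, 1 with DESeq2 (1.67% of all genes) and 0 to 1 with a library left out, the 1 without CAC_F replicate 3 (4.08% of all genes). In CAC_FP against CAC, the count of 18 (18.6% of all genes) became 7 with the smooth muscle covariate (9.09% of all genes) and 10 to 18 with a library left out. The lowest was without CAC_FP replicate 2 (936 of all genes higher and 666 lower). It was 11 without CAC_FP replicate 3 (911 higher and 604 lower) or CAC replicate 1 (1239 higher and 1069 lower). In CAC_FPL against CAC, 4 were called, where 133 of all genes were higher and 79 lower. The count became 11 with DESeq2 (578 of all genes higher and 282 lower), 1 without a filter (61 and 21) and 1 with the replicate block (62 and 33). It was 1 with the smooth muscle covariate (94 and 47) and 0 with only the groups compared (5 and 4). Without CAC replicate 2 and CAC_FPL replicate 3 together it was 12 (841 and 426). With a library left out it was 0 to 10, the 10 without CAC_FPL replicate 3 (501 and 262). In CAC_FPL against CAC_F, the count of 13 (12.2% of all genes) became 5 without a filter (423 of 37962 genes higher and 320 lower) and 0 with only the groups compared (0% of all genes). With a library left out it was 5 to 16, with 5 without CAC_F replicate 2 (2.82% of all genes) and 16 without CAC_FPL replicate 4 (1238 of all genes higher and 1058 lower). The cause of these changes was not tested. The replicate block gave 24, 0, 0 and 0 calls in the 4 main comparisons in the order FOLFOX, AOM/DSS, probiotic complex and loperamide. Of all genes it called 2738 higher and 2985 lower after FOLFOX and 0 in the others. Deviations of same-numbered libraries from their group means correlated at -0.49 to 0.36 over 51 pairs, 13 of them over 0.1. Those of differently numbered libraries correlated at -0.51 to 0.47 over 240 pairs, 61 of them over 0.1. No pairing by replicate number was seen, although such values cannot exclude one. With 5 or 6 libraries a group, differences smaller than the spread between mice may be missed.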
